A study of Rattus norvegicus with 20 samples.

Results

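The genes described here are those of protein folding, glycosylation and quality control in the endoplasmic reticulum (ER), in rat alveolar epithelial cells that were stretched or treated with an inhibitor of the stress kinase PERK. The set is a list of 47 gene symbols, from the luminal chaperones to the machinery of ER-associated degradation. Of these, 45 were found in the count table under the listed symbol, Ero1lb was found through its RefSeq synonym as Ero1b, and Derl2 was not analysed here. The 46 genes found are among 17337 gene symbols in the table, and 44 of them passed the filter on low counts that left 8320 genes for testing. Edem3 and Ero1b did not pass it.

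Type II alveolar cells of Sprague-Dawley rats were grown for 4 days on elastic membranes, where they became monolayers labelled as type I-like, the flat cell that covers most of the gas exchange surface. RNA was measured by 3' end sequencing in 4 groups of 5 libraries, each library pooled from 4 monolayers of 1 animal. NS cells stayed unstretched in 0.01% DMSO for 24 h. S cells had 18 h of the same vehicle and then 6 h of cyclic biaxial stretch, which changed the surface area by 25% at 15 cycles per min. NS_PI and S_PI cells received 1 µM of the PERK inhibitor GSK2606414, for 24 h without stretch in NS_PI per the treatment protocol and for 18 h before the 6 h of stretch in S_PI. The labels give no vehicle content for the inhibitor groups and no age or sex of the rats.

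Proteins that enter the secretory pathway fold in the ER with the help of Hsp70 and Hsp90 chaperones, lectin chaperones that read N-glycans, and disulfide isomerases. Chains that fail to fold are drawn back through the membrane, ubiquitinated and handed to the proteasome, a route called ER-associated degradation. When unfolded chains accumulate, the sensors PERK, IRE1 and ATF6 start the unfolded protein response: ATF6 and the IRE1 product XBP1 bind elements in the promoters of chaperone and degradation genes, while PERK slows translation and raises the factor ATF4. In the lung these genes serve type II cells, which secrete surfactant proteins, and any epithelium under mechanical or secretory load.

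Libraries held 999209 to 3131541 counts on genes, and a count of 3, taken as the detection floor, equals 1.07 to 3.05 CPM. CPM is the count scaled to a common library total, with TMM factors. The kit gives about 1 fragment per transcript, per the labels' protocol, so CPM was not divided by transcript length, and levels of different genes also depend on how well their 3' ends are annotated. Markers of type I cells were present (Pdpn 603 to 2972 CPM, Ager 61.7 to 1263 CPM), while Aqp5 was at 0 in 7 libraries and Rtkn2 at 0 in 10. Markers of other cells were present too: the summed level was 1583 to 13890.4 CPM for 12 macrophage and leukocyte markers and 3267 to 14359 CPM for 10 fibroblast and smooth muscle markers. Each sum rested mostly on 1 gene. In NS, Lyz2 averaged 4596 of 6231 CPM in the first and Col1a1 3939 of 5255 CPM in the second. Marco was at 0 in 19 libraries, Itgam stayed at or below 2.73 CPM, and Col1a2, Lum, Myh11 and Pdgfra at or below 10.4 CPM. Which cells these sums come from was not tested. The summed endothelial level reached at most 4.07 CPM, with Cdh5 and Cldn5 at 0 in 20 of 20 libraries. In such bulk samples, fewer cells of a type and less RNA per cell cannot be told apart. The libraries of animal 1 stood apart from the rest in many of the genes below, so the counts of genes that passed, the log2 fold changes of those genes and the variance shares are also given without that animal.

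The ER genes took 2.13 to 3.50% of all gene counts, and their levels differed widely. Hspa5, which encodes BiP, the main Hsp70 chaperone of the ER and the brake on the stress sensors, was the most abundant at 9132 CPM on average (range 6351 to 13876 over 20 libraries). It alone held 20.9 to 41.4% of the counts of the ER genes in a library. Next came Calr at 2098 CPM, the calcium-binding lectin chaperone calreticulin. Hsp90b1, the ER Hsp90 known as GRP94, averaged 1564 CPM, a level from which P4hb, the main disulfide isomerase, at 1549 CPM and Vcp, the ATPase that pulls degradation substrates out of the membrane, at 1470.2 CPM did not stand apart given their ranges. In all, 8 of the 46 genes averaged at least 1000 CPM and 35 at least 100 CPM. At the low end, Derl3 averaged 16.6 CPM and Manf, a secreted ER factor, 13.5 CPM. Edem3 averaged 3.89 CPM with 0 to 20 counts per library and Ero1b 3.84 CPM with 1 to 11 counts, both too low to be tested.

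**Figure D1:**
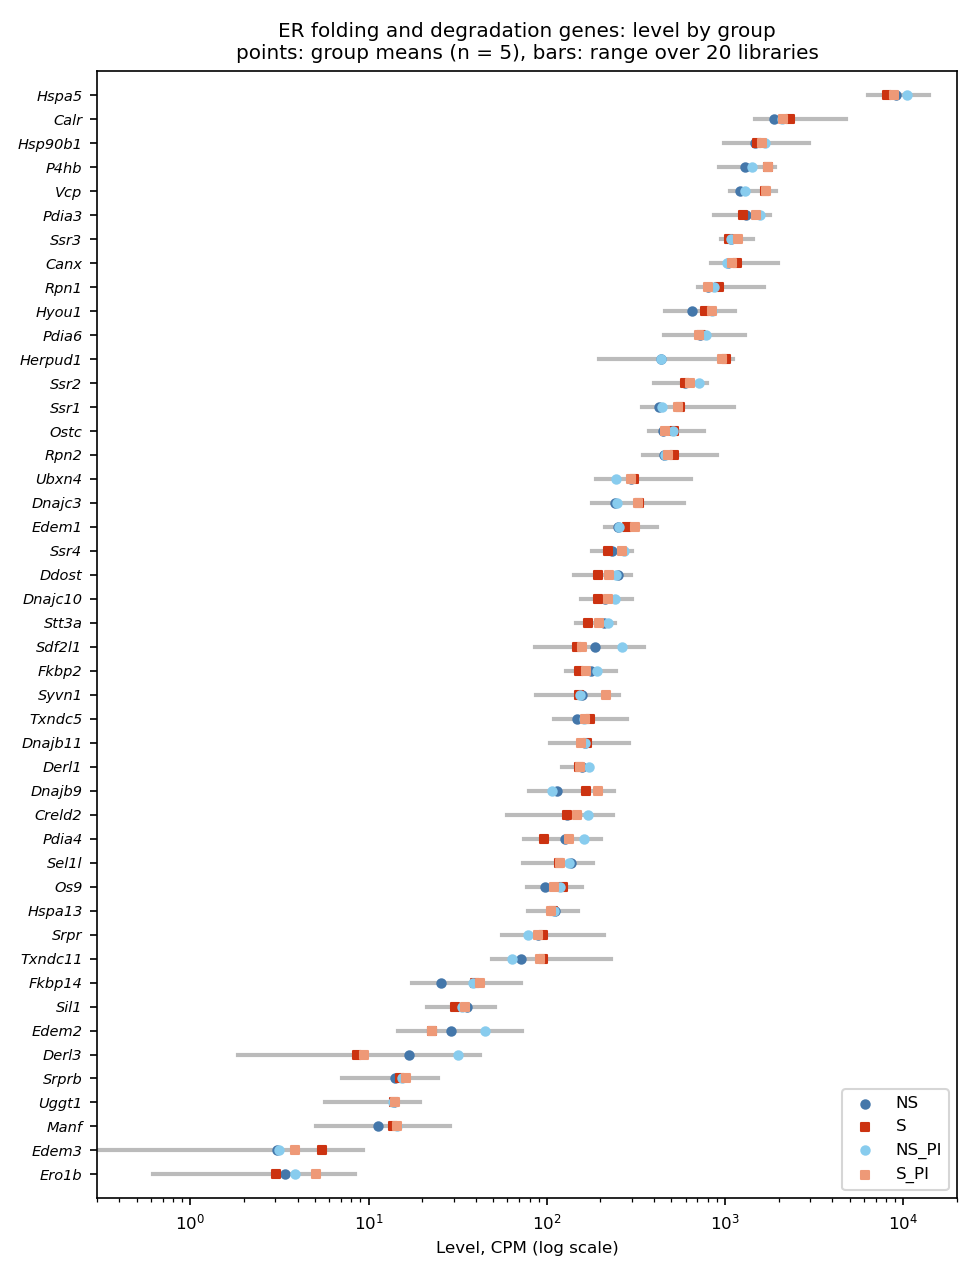
Mean level in CPM (log axis) of the 46 ER genes in NS, S, NS_PI and S_PI (points, n = 5 libraries each), with bars from the lowest to the highest of 20 libraries; the bar of Edem3, which reaches 0, is drawn from the left edge. Hspa5 lies above all others at 9132 CPM on average, and Herpud1 and Derl3 show the widest gaps between stretched (squares) and unstretched (circles) means.

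Promoter sequence was available in RefSeq (build GRCr8) for 41 of the 46 genes found, 1 of them through a synonym, as 250 bases before to 50 after the gene start. Pdia3, Pdia6, Manf, Derl1 and Os9 were not in that table. Both strands were searched for the ER stress response element, CCAAT and CCACG with any 9 bases between, and for element II, ATTGG and CCACG with any 1 base between. The first was found in 8 of 41 promoters (19.5%) against 21 of 27457 promoters in the table (0.0765%), and the second in 3 (7.32%) against 15 (0.0546%). Either one was in 11 (26.8%) against 0.131% of all promoters. These shares describe the list and are no test of it. Such elements are known from chaperone and degradation genes, and the 27457 promoters include the 41. The promoters of 3 genes are shown because their genes carry such an element and yet differed in their response to stretch. Herpud1 rose, Hspa5 did not pass the test, and Derl3 fell with stretch under inhibitor. Capitals mark the matched elements and, in Hspa5, also the core TGACGTGA of the unfolded protein response element. The regions are chr19:10614658-10614957 on the minus strand for Herpud1, chr3:38452766-38453065 on the plus strand for Hspa5 and chr20:12766416-12766715 on the minus strand for Derl3, each printed 5′ to 3′ in the direction of the gene. Derl3 holds its element on the opposite strand, so it reads in reverse complement.
Herpud1: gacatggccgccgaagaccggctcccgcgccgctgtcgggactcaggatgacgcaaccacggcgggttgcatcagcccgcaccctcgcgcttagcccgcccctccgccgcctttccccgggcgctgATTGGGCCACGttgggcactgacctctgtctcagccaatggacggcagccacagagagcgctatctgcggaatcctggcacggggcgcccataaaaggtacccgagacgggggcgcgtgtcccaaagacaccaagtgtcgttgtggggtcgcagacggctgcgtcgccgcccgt
Hspa5: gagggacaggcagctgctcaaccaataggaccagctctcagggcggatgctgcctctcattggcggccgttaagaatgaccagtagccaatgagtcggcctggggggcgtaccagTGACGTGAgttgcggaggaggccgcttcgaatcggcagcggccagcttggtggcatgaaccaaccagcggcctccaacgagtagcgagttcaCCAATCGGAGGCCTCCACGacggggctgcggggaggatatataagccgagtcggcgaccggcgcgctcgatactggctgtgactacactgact
Derl3: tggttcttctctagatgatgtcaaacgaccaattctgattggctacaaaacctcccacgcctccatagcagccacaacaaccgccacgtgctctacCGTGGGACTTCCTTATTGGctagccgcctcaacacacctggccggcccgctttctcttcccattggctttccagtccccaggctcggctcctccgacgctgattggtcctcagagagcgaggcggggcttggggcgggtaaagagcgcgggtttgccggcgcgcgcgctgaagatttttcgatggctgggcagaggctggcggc

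The elements themselves are given to compare the 11 genes that carry one, each read in the direction of the motif with its fixed bases in capitals. Hsp90b1 and Hyou1 hold a pair each. Hyou1 encodes a large ER Hsp70 that exchanges nucleotide on BiP, Creld2 a disulfide isomerase-like protein, and Dnajc3 and Dnajb11 J-domain partners of BiP.
Hspa5: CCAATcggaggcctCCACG
Hsp90b1, nearer the start: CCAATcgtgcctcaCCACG
Hsp90b1, farther: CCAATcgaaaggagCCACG
Calr: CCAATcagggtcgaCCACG
Canx: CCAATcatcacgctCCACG
Creld2: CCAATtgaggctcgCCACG
Dnajc3: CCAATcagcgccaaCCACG
Derl3: CCAATaaggaagtcCCACG
Ero1b: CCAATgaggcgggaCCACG
Herpud1: ATTGGgCCACG
Dnajb11: ATTGGcCCACG
Hyou1, farther: ATTGGcCCACG
Hyou1, nearer the start: ATTGGgCCACG
The core TGACGTGG, searched on both strands, was in the promoters of Dnajc10, Hyou1, Txndc11 and Vcp, 4 of 41 (9.76%) against 0.637% of all promoters, and in Hyou1 it overlaps the farther element. The core TGACGTGA was in Hspa5 alone of the 41 (2.44% against 0.393%). No promoter of the 41 held TGATGNAAT, the element bound by ATF4 with C/EBP factors (1.05% of all promoters), or TGACGTCA, the cAMP response element (1.91%).

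Stretch without inhibitor raised 4 of the 44 tested ER genes and lowered 1. Herpud1 rose most, by 2.47-fold, and Vcp, Dnajb9 and P4hb rose by 1.36-fold to 1.45-fold, while Ddost, a subunit of the oligosaccharyltransferase that puts glycans on nascent chains, was 1.30-fold lower. BiP, GRP94 and the lectin chaperones did not pass the test. The 5 genes are 11.4% of the 44, against 24.9% of the 8320 genes tested that passed in S vs NS (12.5% higher and 12.4% lower). The test is the quasi-likelihood F test of edgeR with group and animal in the fit, at a Benjamini-Hochberg adjusted p below 0.05 over all genes tested. At an unadjusted p below 0.05 there were 10 of 44 (22.7%), against 37.5% of all genes tested. DESeq2 passed 6, the same 5 and Stt3a, which was lower. The count of 5 was 4 without animal 1, 3 without animal 2 or 3 and 2 without animal 5, without the animal block or in a fit to NS and S alone. With scaling by library size alone, which put the median of all genes at -0.12, 2 ER genes were higher and 4 lower, and with RLE scaling 4 were higher and none lower. The median log2 fold change of the 44 was -0.03, beside -0.01 for all genes tested, and -0.07 beside -0.01 without animal 1.

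Stretch in the presence of inhibitor raised 4 of the 44 and lowered 3. Where a stretch effect is given with inhibitor below, it is that of S_PI vs NS_PI. Herpud1, Dnajb9 and Vcp rose as they did without inhibitor, joined by Syvn1, and Derl3, Edem2 and Sdf2l1 fell. These 7 are 15.9% of the 44, against 30.5% of all genes tested (15.2% higher and 15.3% lower), and were 4 without animal 3 and 8 without animal 1. The median log2 fold change was -0.04 for the ER genes and -0.02 for all, and -0.14 and -0.03 without animal 1. In total 9 of the 44 passed in either stretch contrast and 35 in neither. Over both contrasts 2 of the 44, Herpud1 and Vcp, had all 10 stretched libraries above all 10 unstretched ones, beside 1.62% of all genes tested, and no ER gene had them all below, beside 1.74%.

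**Figure D2:**
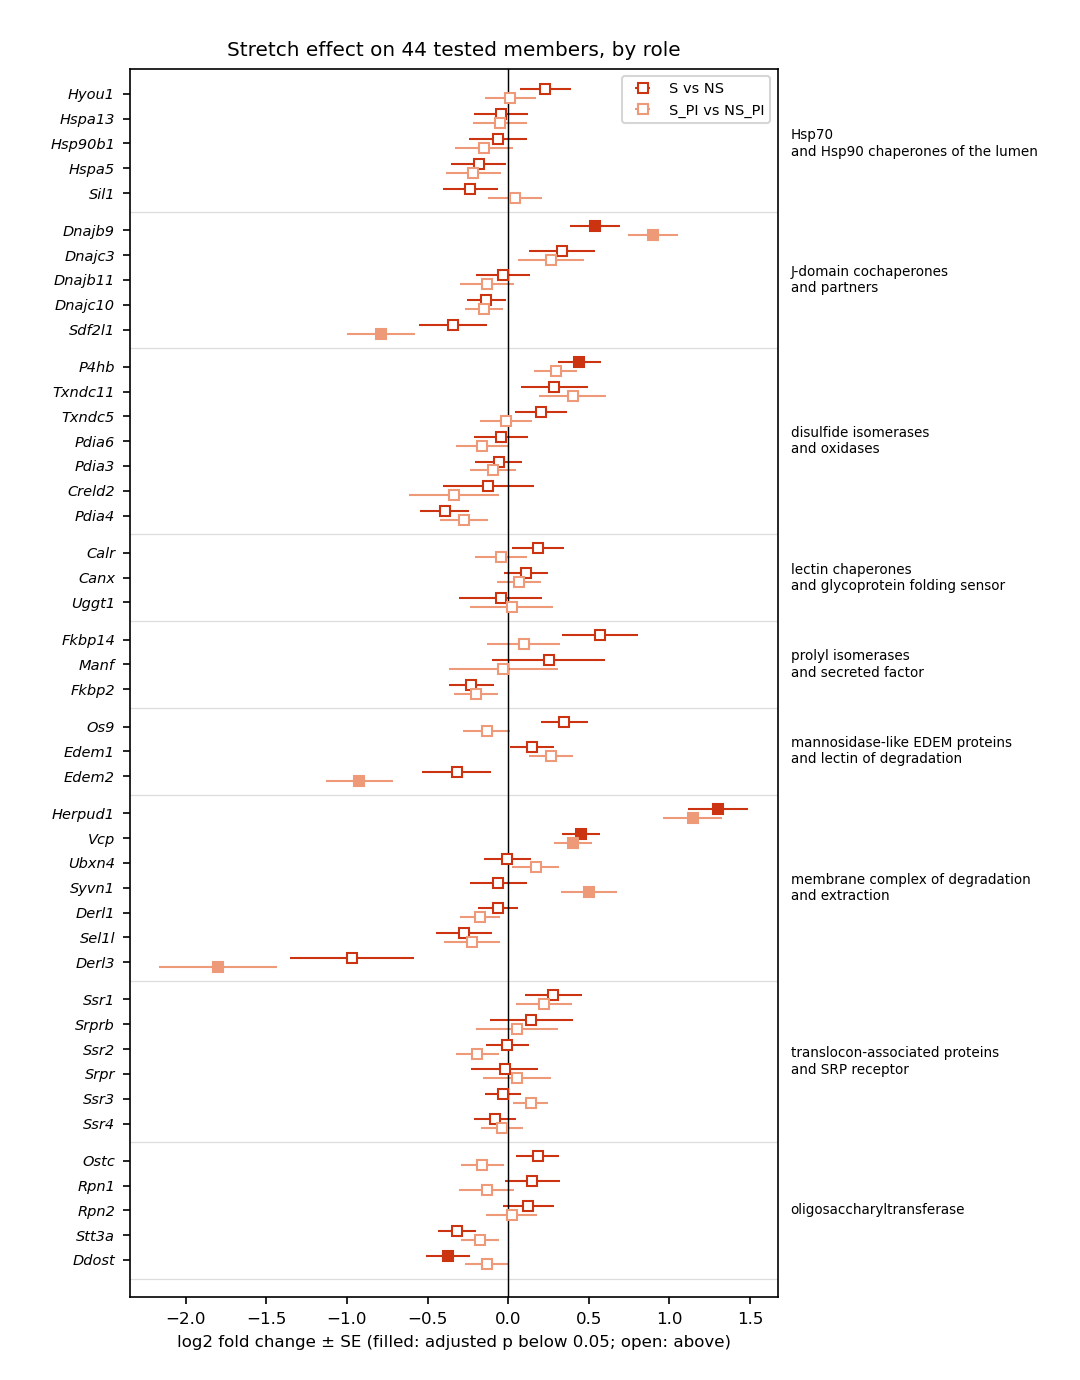
Log2 fold change ± SE of stretched over unstretched cells for the 44 tested ER genes, grouped by role, without (S vs NS, dark) and with inhibitor (S_PI vs NS_PI, light), n = 5 animals; filled squares have an edgeR adjusted p below 0.05. Herpud1 lies farthest to the right at 1.30 and 1.14, Derl3 farthest to the left at -0.97 and -1.80, and most other genes lie within 0.5 of 0.

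Of the genes of degradation at the membrane, 2 of 7 tested passed without inhibitor (28.6%, against 24.9% of all genes tested) and 4 of 7 with it (57.1%, against 30.5%). Herpud1 encodes HERP, a ubiquitin-like membrane protein that organises the HRD1 ubiquitin ligase complex. In NS it was at 197, 569.8, 629, 396 and 387 CPM in animals 1 to 5, and in S at 1099, 976, 939, 1063 and 989 CPM. With inhibitor it was at 334, 481, 472, 432 and 459.7 CPM in NS_PI and 681, 1109, 915, 1079 and 1046 CPM in S_PI. Every stretched library was above every unstretched one, the lowest being the S_PI library of animal 1. The group means were 436 ± 171 CPM in NS and 1013 ± 65.8 CPM in S (SD, n = 5), a log2 fold change of 1.30 ± 0.19 (SE), and the edgeR adjusted p was 6.37e-05. With inhibitor the means were 436 ± 60.0 and 966 ± 176 CPM and the log2 fold change 1.14 ± 0.18 (edgeR adjusted p = 0.000118). Leaving out animal 1 gave 1.03 and 1.16. The libraries of animal 1 were the lowest of their group in NS, NS_PI and S_PI and the highest in S.

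Vcp encodes p97, the ATPase that extracts ubiquitinated chains for the proteasome and that also acts outside the ER. It was at 1066, 1113, 1378, 1331 and 1211 CPM in NS and 1647, 1939, 1646, 1618 and 1499.5 CPM in S, animals 1 to 5. With inhibitor the levels were 1341, 1314, 1145, 1277 and 1368 CPM in NS_PI and 1796, 1766, 1662, 1682 and 1607 CPM in S_PI. No stretched library reached as low as the highest unstretched one. The log2 fold change was 0.45 ± 0.12 without inhibitor (edgeR adjusted p = 0.00935) and 0.40 ± 0.12 with it (edgeR adjusted p = 0.0145), with all 5 animals higher in both, and 0.42 and 0.39 without animal 1. The first of these no longer passed without animal 2 (adjusted p = 0.0666) or in a fit to NS and S alone (0.0865), the second without animal 3 (0.0609) or animal 4 (0.0524).

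Syvn1 encodes HRD1, the ubiquitin ligase at the centre of the complex. Its levels were 159, 195, 169.9, 113 and 146 CPM in NS and 86.5, 191, 145, 174 and 157 CPM in S, which overlap. In NS_PI it was at 159.6, 213, 148, 131 and 117 CPM and in S_PI at 254, 223, 172, 210.4 and 211 CPM, higher in each of the 5 animals though the groups overlap. The log2 fold change was -0.06 ± 0.18 without inhibitor and 0.50 ± 0.17 with it (edgeR adjusted p = 0.0343 for the latter), and 0.44 for the latter without animal 1. That call was lost without animal 3, 4 or 5 (adjusted p 0.0525, 0.104 and 0.139), with scaling by library size alone (0.100) and without the animal block (0.122). Its difference between the contrasts, 0.56 ± 0.25, did not pass (edgeR adjusted p = 0.984, unadjusted 0.0343).

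Derl3 encodes a derlin, a membrane protein of the channel through which chains leave the ER. It was at 13.4, 22.7, 14.3, 15.3 and 18.4 CPM in NS and 14.6, 7.14, 1.85, 11.2 and 8.37 CPM in S, and at 14.4, 42.1, 38.5, 26.9 and 36.4 CPM in NS_PI and 8.02, 7.32, 2.92, 9.91 and 19.1 CPM in S_PI. The S library of animal 1 lay within the NS range, and the other 4 S libraries lay below all of NS. With inhibitor every animal was lower after stretch, and Derl3 was 3.48-fold lower (log2 fold change -1.80 ± 0.37, edgeR adjusted p = 0.000992), and -1.97 without animal 1. Without inhibitor the log2 fold change of -0.97 ± 0.39 missed the threshold (adjusted p = 0.07) and reached it without animal 1, at -1.39 (adjusted p = 0.0104), with library size scaling (0.0463) and with no filter on low counts (0.0260). Derl3 had 3 to 101 counts per library, so counting error is large for it. The remaining genes of this step did not pass in either contrast: Sel1l, the scaffold of HRD1, had log2 fold changes of -0.28 and -0.22, Derl1 of -0.06 and -0.17, and Ubxn4, which tethers p97 to the ER, of -0.01 and 0.17.

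The mannosidase-like proteins that mark glycoproteins for degradation differed among themselves. Edem2, which in human cells starts mannose trimming, was at 18.0, 24.2, 33.5, 31.2 and 38.0 CPM in NS and 14.6, 25.7, 24.1, 26.4 and 23.2 CPM in S. With inhibitor it was at 34.0, 31.7, 72.8, 36.2 and 51.2 CPM in NS_PI and 26.4, 20.1, 21.6, 22.1 and 23.9 CPM in S_PI, and these groups did not overlap. Edem2 was 1.90-fold lower in S_PI than in NS_PI (log2 fold change -0.92 ± 0.21, edgeR adjusted p = 0.00223, and -1.10 without animal 1). In S vs NS it had -0.32 ± 0.21 (adjusted p = 0.28). Edem1, another of the family, had 0.15 and 0.27. Os9, the lectin that hands trimmed glycoproteins to the ligase, had 0.35 ± 0.15 in S vs NS and -0.13 ± 0.15 in S_PI vs NS_PI, neither passing. Its difference between the contrasts was -0.48 ± 0.21 (edgeR adjusted p = 0.984, unadjusted 0.0305).

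Among the J-domain proteins, which deliver clients to BiP, Dnajb9 rose in both contrasts. Dnajb9, or ERdj4, binds BiP and the stress sensor IRE1. It was at 96.0, 161, 114, 95.4 and 105 CPM in NS and 139.8, 175, 203, 129 and 178 CPM in S, and at 100.04, 148, 123, 80.4 and 79.5 CPM in NS_PI and 237, 185, 179, 179 and 187 CPM in S_PI. All 5 animals rose in both, with overlap of NS and S but none of NS_PI and S_PI. The log2 fold change was 0.54 ± 0.16 without inhibitor (edgeR adjusted p = 0.0148) and 0.90 ± 0.16 with it (edgeR adjusted p = 0.000235), and 0.55 and 0.78 without animal 1. The first was lost without animal 3 (0.0649) or 5 (0.0578), with library size scaling (0.0542) and without the animal block (0.0828). The difference of 0.36 ± 0.22 between the contrasts did not pass (edgeR adjusted p = 0.984).

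Sdf2l1 encodes a protein that forms a complex with Dnajb11. It was at 93.2, 203, 144, 224 and 266 CPM in NS and 107, 85.6, 133, 229.8 and 183 CPM in S, which overlap, and at 129.8, 277, 299.5, 269.9 and 352 CPM in NS_PI and 125, 87.2, 111, 258 and 209 CPM in S_PI, lower in each animal. In S_PI it was 1.73-fold lower than in NS_PI (log2 fold change -0.79 ± 0.21, edgeR adjusted p = 0.00748, and -0.98 without animal 1). That call was lost without animal 3 (0.0742) and without the animal block (0.148). Without inhibitor the log2 fold change was -0.34 ± 0.21 (adjusted p = 0.245). Dnajc3, Dnajb11 and Dnajc10 did not pass, with log2 fold changes of 0.33, -0.03 and -0.14 in S vs NS and of 0.27, -0.13 and -0.15 with inhibitor.

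**Figure D3:**
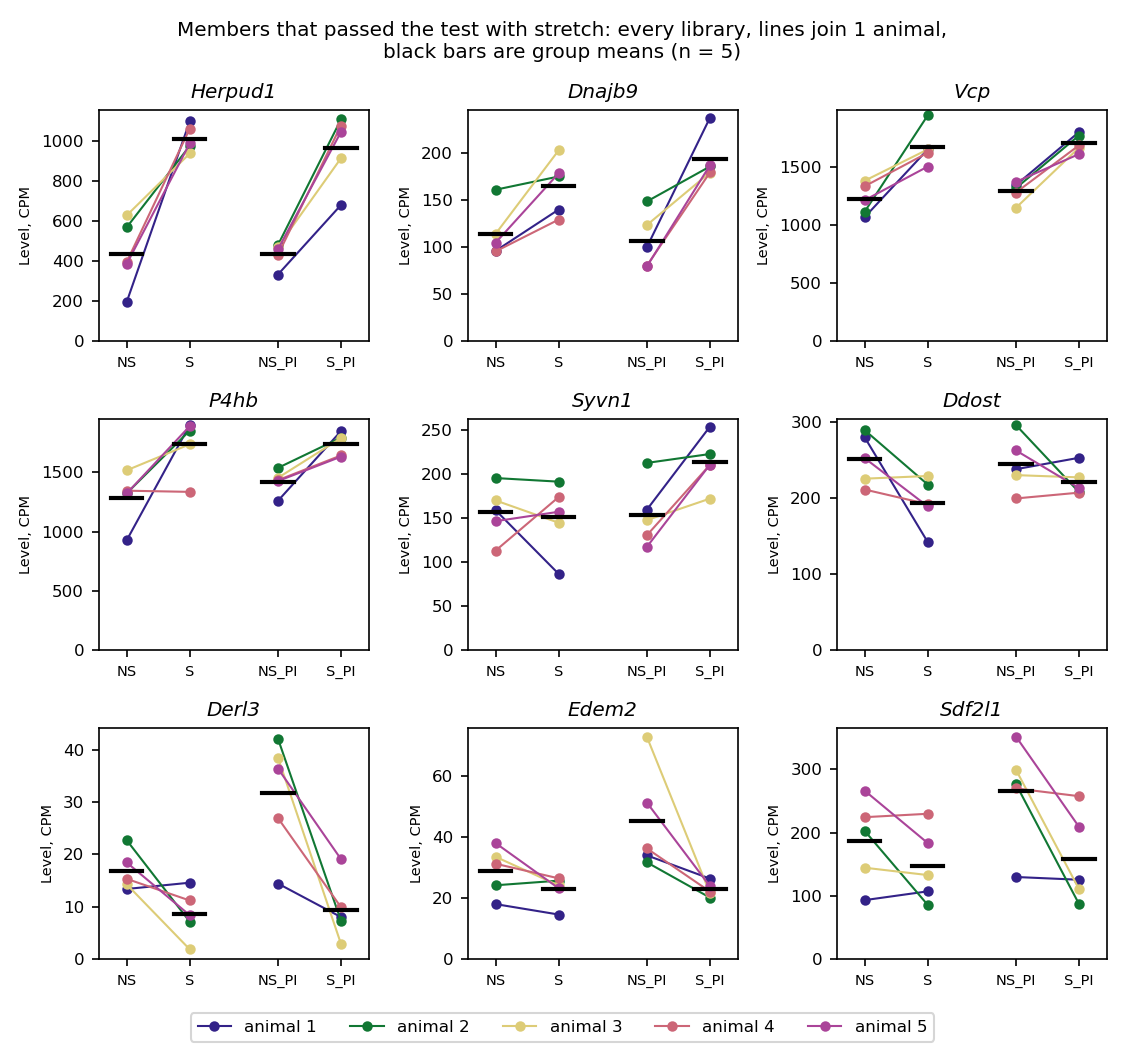
Level in CPM of the 9 ER genes that passed the test in a stretch contrast, in every library of NS, S, NS_PI and S_PI, with 1 colour per animal, lines from the unstretched to the stretched library of 1 animal, and black bars at group means (n = 5). Herpud1 rises in 10 of 10 lines from means of 436 CPM in both unstretched groups to 1013 and 966 CPM, and the lines of Derl3, Edem2 and Sdf2l1 in the inhibitor groups all point down.

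None of the 5 tested general chaperones of the lumen passed in either contrast, and their values differed in direction between animals. Hspa5 was at 6384, 11187, 9435, 8769 and 9926 CPM in NS and 7357, 7313, 6351, 9391 and 9836 CPM in S, animals 1 to 5. With inhibitor it was at 8148, 13876, 10184, 9202 and 10678 CPM in NS_PI and 9919.8, 7179, 6894, 9699 and 10912 CPM in S_PI. In animals 2 and 3 it was lower after stretch in both pairs, in animals 1 and 4 higher in both. The log2 fold change was -0.18 ± 0.17 without inhibitor, with a 95% interval of -0.54 to 0.17, and -0.22 ± 0.17 with it, interval -0.57 to 0.14, so both intervals include 0 and falls of up to 0.5. Hsp90b1 averaged 1473 ± 291 CPM in NS and 1511 ± 756 CPM in S, with a log2 fold change of -0.06 ± 0.18, and 1664 ± 306 CPM in NS_PI and 1606 ± 769 CPM in S_PI, with -0.15 ± 0.18. The S and S_PI libraries of animal 1 held 2796 and 2938 CPM and the other 8 stretched libraries 980.2 to 1571 CPM. In S vs NS the difference of the means and the fitted fold change, which is on the log scale, have opposite signs. Hyou1, Hspa13 and Sil1, the last a nucleotide exchange factor of BiP, did not pass either, with log2 fold changes between -0.23 and 0.23 over both contrasts.

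Of 7 tested genes of disulfide bond formation, 0 passed with inhibitor (0%, against 30.5% of all genes tested). In S vs NS 1 passed (14.3%, against 24.9%), P4hb. It was at 928, 1324, 1518, 1346 and 1323 CPM in NS and 1901, 1853, 1738, 1336 and 1891 CPM in S, with the S library of animal 4 at its NS level and the other animals higher. In NS_PI it was at 1260.5, 1538, 1454, 1435 and 1427 CPM and in S_PI at 1849, 1794, 1789, 1644 and 1633 CPM, where the groups did not overlap. The log2 fold change was 0.44 ± 0.13 in S vs NS (edgeR adjusted p = 0.0199) and 0.29 ± 0.13 with inhibitor (adjusted p = 0.0973). The call was lost without animal 1 (0.31 on the log2 scale, 0.0624), 2 (0.0646) or 5 (0.0703), with library size scaling (0.0555), without the animal block (0.0561) and in a fit to NS and S alone (0.124). Pdia4, a related isomerase, was lower after stretch in all 5 animals of S vs NS, at 101, 99.7, 127, 166 and 143 CPM in NS and 74.4, 75.7, 109, 127 and 97.2 CPM in S, and did not pass (-0.39 ± 0.15, adjusted p = 0.064). Pdia3, which works with the lectin chaperones, had -0.06 and -0.09, and Pdia6 -0.05 and -0.16. Txndc5, Txndc11 and Creld2 did not pass.

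No lectin chaperone passed in either contrast. Of 5 oligosaccharyltransferase subunits 0 passed with inhibitor (0%, against 30.5% of all genes tested), and in S vs NS 1 passed (20%, against 24.9%), Ddost. Ddost was at 280.1, 289.6, 226, 211 and 253 CPM in NS and 142, 218, 229, 192 and 189 CPM in S, lower in 4 of 5 animals with overlapping groups, and its log2 fold change of -0.37 ± 0.14 was close to the threshold (edgeR adjusted p = 0.0492). It was lost in 9 of 11 alternatives, among them the omission of any 1 animal (adjusted p 0.0554 to 0.196), with -0.22 without animal 1. With inhibitor Ddost had -0.13 ± 0.14. The catalytic subunit Stt3a had -0.32 ± 0.12 (edgeR adjusted p = 0.0544) and -0.17 ± 0.12 with inhibitor. In S vs NS it passed as lower with DESeq2 (-0.30, adjusted p = 0.0411), with library size scaling (0.0184) and without animal 4 (0.0333). Rpn1, Rpn2 and Ostc did not pass. Calr averaged 1876 ± 415 CPM in NS and 2315 ± 1391 CPM in S (0.19 ± 0.16), and 2076 ± 332 CPM in NS_PI and 2123 ± 835 CPM in S_PI (-0.05 ± 0.16), where the S_PI library of animal 1 held 3586 CPM and the other 4 1589.8 to 1976 CPM. There too the difference of the means and the fitted fold change have opposite signs. Canx, the membrane-bound lectin calnexin, had 0.11 ± 0.14 and 0.07 ± 0.14, and the folding sensor Uggt1 -0.05 and 0.02. None of the 6 translocon-associated proteins and receptor subunits of the signal recognition particle passed (Ssr1, Ssr2, Ssr3, Ssr4, Srpr and Srprb), their log2 fold changes lying between -0.19 and 0.28. The prolyl isomerases Fkbp2 and Fkbp14 and the secreted Manf did not pass, with Fkbp14 at 0.57 ± 0.24 in S vs NS (adjusted p = 0.0805, and 0.0392 without animal 2) and 0.10 ± 0.23 with inhibitor.

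The genes were also counted by whether their promoter held an exact match to an ER stress response element in the region searched. Elements that differ from the searched sequence or lie outside that region were not counted. Of 10 tested genes with either form of the element, 1 was higher and none lower in S vs NS, with a median log2 fold change of 0.04, and 1 was higher and 1 lower with inhibitor, median -0.09. Of 29 tested genes with a promoter but without an exact match, 3 were higher and 1 lower in S vs NS, median -0.02, and 3 higher and 2 lower with inhibitor, median 0.02. These are counts over the list, with no test between them. They are to be read against the 24.9% of all genes tested that passed in S vs NS and the 30.5% with inhibitor.

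The spread of the ER genes was divided by animal, stretch and inhibitor. Animal has 5 levels, more than stretch or inhibitor, so its share of variance tends to be the larger even without any effect. The shares were not corrected for this, so each is given beside that of all genes. Per gene, a median of 44.5% of the variance of log2 CPM over the 20 libraries lay between animals, 3.66% between stretched and unstretched cells and 2.20% between inhibitor and vehicle, beside 37.5%, 13.1% and 1.23% for all genes tested. Without animal 1 these medians were 26.1%, 14.6% and 3.97% for the ER genes and 26.6%, 17.8% and 1.68% for all genes. The animal share was the largest of these for 33 of the 44 (25 without animal 1), beside 5792 of the 8320 genes tested (4717 without animal 1). Among the 33 were Ubxn4 at 85.0%, Calr at 75.1% and Canx at 69.4%. Stretch had the largest share for 9 (17 without animal 1), beside 2427 of the 8320 genes tested (3316 without animal 1). The highest stretch shares were those of Vcp at 78.4%, Herpud1 at 76.4%, Dnajb9 at 62.0% and P4hb at 52.9%. Inhibitor had the largest for 2, Ssr4 at 34.9% and Pdia3 at 32.0%.

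Between the stretched and unstretched libraries of an animal, most ER genes were higher in animal 1 and lower in animals 2 and 3. Each pair is 1 library against 1, so stretch, cell composition and library cannot be told apart in it. In animal 1, 32 of the 44 genes were higher in S than in NS and 34 higher in S_PI than in NS_PI, with median log2 differences of 0.54 and 0.32. In animal 3, 11 and 12 were higher, with medians of -0.19 and -0.20, and in animal 2, 15 and 11, with medians of -0.20 and -0.26. Animals 4 (26 and 31) and 5 (27 and 19) lay between. Over all genes tested, at most 50.7% were higher in any of these 10 pairs and the medians lay between -0.04 and 0.01. The sign was the same in both pairs of an animal for 34, 34, 33, 25 and 30 of the 44 genes in animals 1 to 5, which is 56.8 to 77.3%, beside 68.4 to 77.5% of all genes. These differences are of log2(CPM + 0.5).

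**Figure D4:**
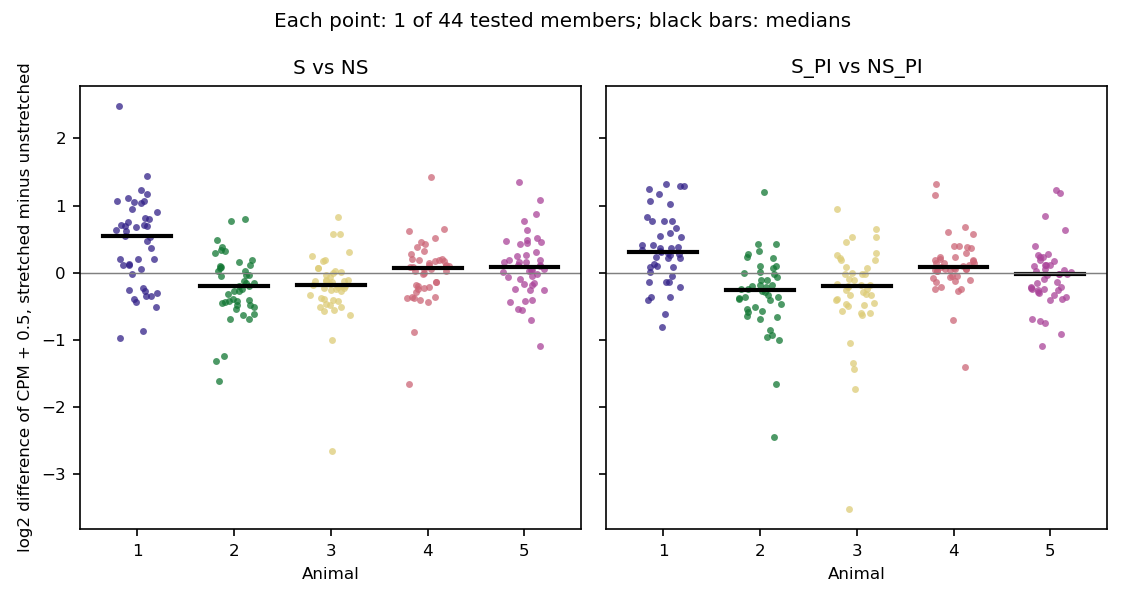
Log2 difference of CPM + 0.5 between the stretched and the unstretched library of each animal, without inhibitor (left) and with it (right); each point is 1 of the 44 tested ER genes and black bars are medians. The cloud of animal 1 is centred at 0.54 and 0.32, those of animals 2 and 3 between -0.26 and -0.19, and those of animals 4 and 5 within 0.1 of 0.

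In animal 1 both Hspa5 and the sum of the other genes were higher after stretch. Hspa5 went from 6384 to 7357 CPM without inhibitor and from 8148 to 9919.8 CPM with it. The summed level of the 46 genes without Hspa5 was 18157 CPM in NS and 27799 CPM in S, and 19785 CPM in NS_PI and 26053 CPM in S_PI, while the other 16 libraries lay between 16874 and 20834 CPM. Calr was at 2544 CPM in NS and 4759 CPM in S of animal 1, against 1529 to 2134 CPM in S of animals 3 to 5 and 1469 CPM in animal 2. Rpn1, a subunit of the oligosaccharyltransferase, was at 703 CPM in NS and 1646 CPM in S of animal 1, with the other S libraries between 701 and 805 CPM. Txndc11, a thioredoxin-like ER protein, went from 105 to 228 CPM without inhibitor and from 70.7 to 177 CPM with it. Creld2 was higher after stretch in animal 1, at 93.2 and 196 CPM without and 105 and 236 CPM with inhibitor, and lower in animals 2 and 3 in both pairs. Without animal 1 it fell in S_PI vs NS_PI, by 0.70 on the log2 scale (edgeR adjusted p = 0.0139), where all 5 animals gave -0.34 ± 0.28 (adjusted p = 0.385).

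Cell type markers moved in animal 1 as well. The summed level of 12 type I markers was 8234 CPM in NS and 4032 CPM in S, and 7881 and 2986 CPM with inhibitor. That of 10 fibroblast and smooth muscle markers was 3718 and 8783 CPM, and 4470.0 and 9606 CPM with inhibitor. The highest of them was Col1a1, a collagen chain, at 2201 to 11628 CPM over 20 libraries. The summed type II, airway epithelial and plasma cell markers were lower in the stretched libraries of animal 1. Type II markers went from 759 to 325 CPM and, with inhibitor, from 672 to 220.0 CPM, and airway markers from 567 to 277 and from 625 to 211 CPM. Plasma cell markers, whose sum was almost all Sdc1, went from 463 to 134 and from 413 to 155 CPM. Mesothelial markers were higher, from 250.1 to 881 and from 285 to 477 CPM, and macrophage and leukocyte markers from 1583 to 2115 and from 1589 to 2598 CPM. Animals 4 and 5 had more of the fibroblast and smooth muscle markers after stretch too, from 7151 to 11177 CPM and from 7546 to 12505 CPM without inhibitor, and animals 2 and 3 held 3272.5 to 4585.5 CPM in NS and S. Across groups, 4 of 10 tested type I markers fell and 1 rose in S vs NS, and 6 fell and 2 rose with inhibitor, against 24.9% and 30.5% of all genes tested in either direction. Without animal 1, 4 fell and 1 rose, and 5 fell and 1 rose with inhibitor. Of 10 tested macrophage and leukocyte markers, 5 rose in S vs NS and 6 with inhibitor, and none fell. Of 7 tested fibroblast and smooth muscle markers, 1 rose and none fell in S vs NS, and 3 rose and 1 fell with inhibitor. None of 8 tested type II markers passed in either contrast. Without the animal block, none of the type I and of the macrophage and leukocyte markers passed in S vs NS. Of the markers of plasma cells, which are rich in ER, Mzb1 was at 0 in 16 libraries, and Mzb1, Cd79b and Tnfrsf17 each stayed at or below 1.58 CPM, while Sdc1, also made by epithelium, was at 134 to 567 CPM. The part of cell composition in the stretch results above was not tested.

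The PERK inhibitor moved no ER gene past the threshold. In NS_PI vs NS, 0 of 8320 genes passed with edgeR (0%; 455 or 5.47% at an unadjusted p below 0.05, and 4 with DESeq2), and 0 of the 44 ER genes, of which 7 (15.9%) had an unadjusted p below 0.05. In S_PI vs S it was 0 of 8320 (0%; 340 or 4.09% unadjusted, 0 with DESeq2) and 0 of 44, 2 unadjusted (4.55%). Averaged over stretched and unstretched cells, 2 genes of all tested fell (0.024%), Trib3 and Slc7a1, both known ATF4 targets, where leaving out any 1 of animals 2 to 5 gave 0 genes and leaving out animal 1 gave 4. No ER gene passed with edgeR or DESeq2, with 8 (18.2%) at an unadjusted p below 0.05, beside 5.08% of all genes.

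The direction of the ER genes in these contrasts was mostly upward, as a description. In NS_PI vs NS 33 of 44 had a positive log2 fold change, with a median of 0.11, beside 49.7% positive and a median of -0.001 over all genes tested. Of the 44, 10 were higher in all 5 animals (22.7%, beside 5.22% of all genes) and none was lower in all 5 (beside 6.20%). In S_PI vs S 29 of 44 were positive, with a median of 0.07, and 5 were higher in all 5 animals (11.4%, beside 3.82%). The average inhibitor effect was positive for 34 of 44, and had its smallest unadjusted p for Pdia4, at 0.41 ± 0.11 (edgeR adjusted p = 0.509). Pdia4 was at 134, 122, 194, 155 and 201 CPM in NS_PI and 146, 100.1, 93.9, 159 and 165 CPM in S_PI, higher than the vehicle library of the same animal in 8 of 10 pairs. Pdia3 had 0.26 ± 0.10, Ssr4 0.24 ± 0.09 and Hyou1 0.25 ± 0.11, each with an adjusted p above 0.9. They were higher than the vehicle library of the same animal in 10, 8 and 9 of 10 pairs. The pair counts come from the same values as the effects and from 5 animals, so they are no separate evidence.

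**Figure D5:**
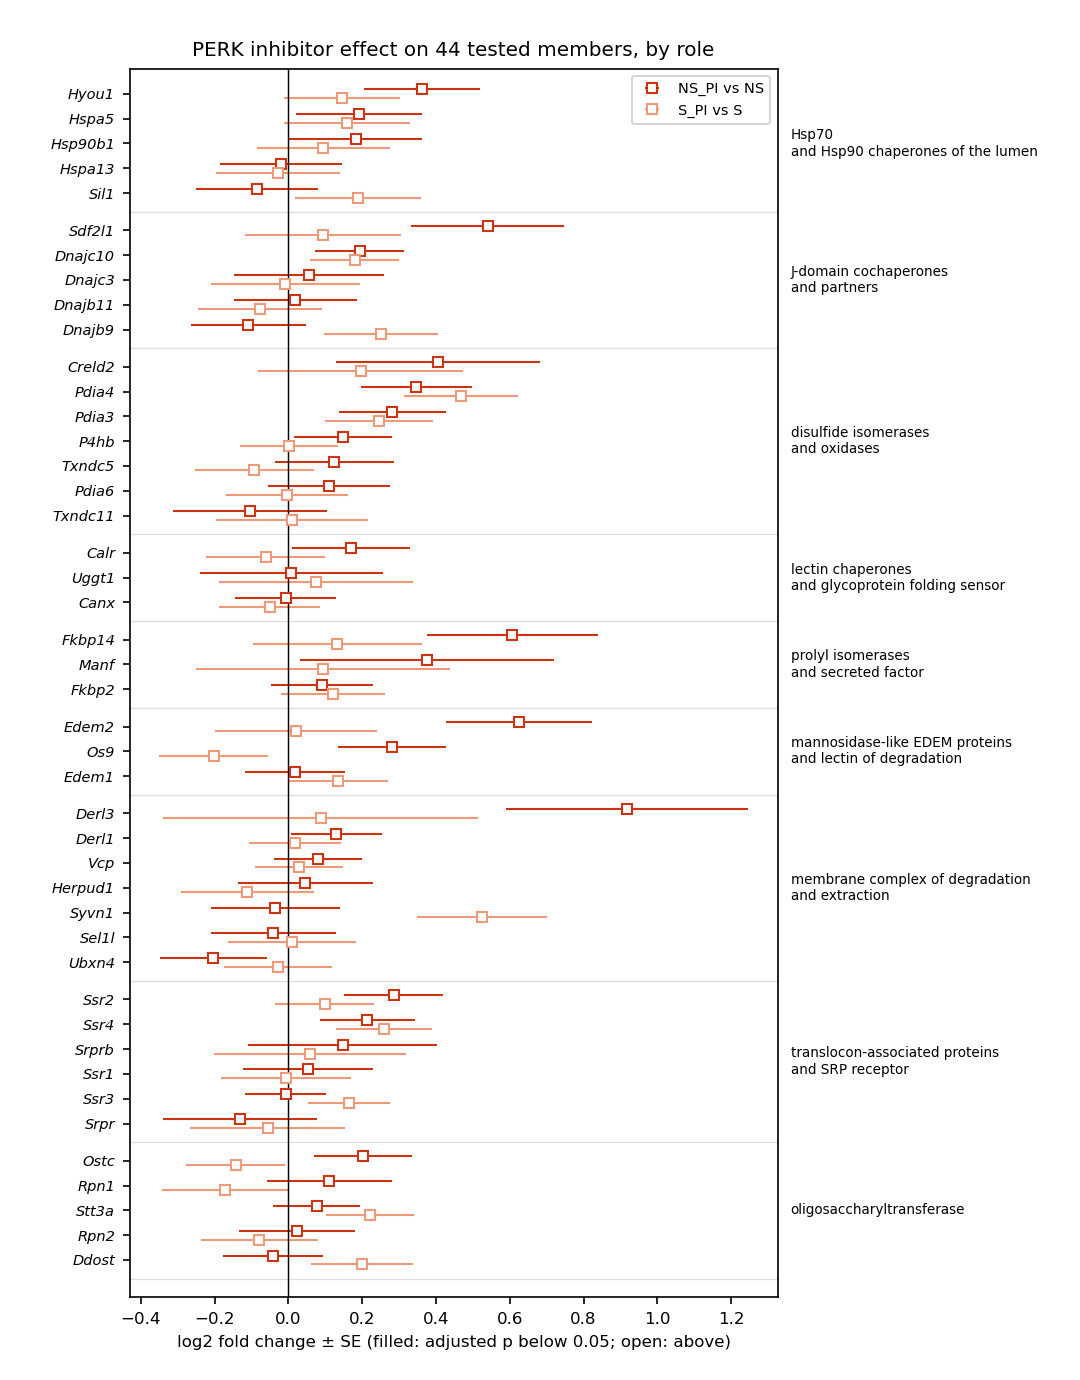
Log2 fold change ± SE of inhibitor over vehicle for the 44 tested ER genes by role, in unstretched (NS_PI vs NS, dark) and stretched cells (S_PI vs S, light), n = 5 animals. All squares are open, since no gene passed the test, and 33 of 44 dark and 29 of 44 light squares lie to the right of 0.

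The 3 genes that fell with stretch under inhibitor were among the 4 with the largest log2 fold changes in NS_PI vs NS. Derl3 had a mean of 16.8 ± 3.80 CPM in NS and 31.7 ± 11.2 CPM in NS_PI, 0.92 ± 0.33 on the log2 scale, while S and S_PI held 8.63 and 9.45 CPM. Edem2 had 29.0 ± 7.90 and 45.2 ± 17.2 CPM, 0.63 ± 0.20, and 22.8 and 22.8 CPM after stretch. Sdf2l1 had 186 ± 68.1 and 266 ± 82.5 CPM, 0.54 ± 0.21, and 148 and 158 CPM after stretch. All 3 were higher in NS_PI than in NS in 5 of 5 animals and none passed (edgeR adjusted p 0.717 to 0.868). S_PI vs NS_PI and NS_PI vs NS share the NS_PI libraries, so these values are not independent. Fkbp14, the other of the 4, averaged 25.4 ± 2.98 CPM in NS and 38.3 ± 4.85 CPM in NS_PI, 0.61 ± 0.23 on the log2 scale, and the fifth, Creld2, 129 ± 32.5 and 171 ± 47.9 CPM, 0.41 ± 0.28. In S_PI vs S the largest values were those of Syvn1 at 0.53 ± 0.18, Pdia4 at 0.47 ± 0.15, Ssr4 at 0.26 ± 0.13, Dnajb9 at 0.25 ± 0.15 and Pdia3 at 0.25 ± 0.15. The difference between the stretch contrasts was -0.83 ± 0.54 for Derl3, -0.60 ± 0.30 for Edem2 and -0.45 ± 0.30 for Sdf2l1. In that test no gene passed with edgeR or DESeq2 (0% of 8320, 345 or 4.15% at an unadjusted p below 0.05, and 2 of the 44 ER genes or 4.55%), so the stretch effects were not shown to differ with inhibitor.

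Other genes of the pathway, from lists chosen with earlier results of these data known, are given by their counts, to be read against the 12.5% higher and 12.4% lower of all genes tested in S vs NS and the 15.2% and 15.3% with inhibitor. Of 15 tested sensors and regulators of the unfolded protein response, 5 rose and none fell in S vs NS (median log2 fold change 0.32), and 8 rose and none fell with inhibitor (median 0.68), which is 33.3% and 53.3% called. Without animal 1 it was 7 and 8. With library size scaling it was 5 and none, and 7 higher and 1 lower with inhibitor, and without the animal block 3 rose in each. Ppp1r15a, which encodes GADD34 and reverses the translation block, rose by 1.98 ± 0.25 and 2.50 ± 0.26 on the log2 scale, Atf4 by 0.97 ± 0.15 and 1.26 ± 0.15, and Ddit3, encoding the factor CHOP, by 0.84 ± 0.14 and 0.94 ± 0.14 (edgeR adjusted p at most 0.000337). Traf2 rose in S vs NS and Eif2ak3, encoding PERK, in S_PI vs NS_PI, by 1.08 ± 0.25 and 0.85 ± 0.22. In the average inhibitor effect, Trib3 was lower by 0.86 ± 0.14 (SE, edgeR adjusted p = 0.0425). It rose with stretch in the inhibitor groups by 0.69 ± 0.21.

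Among 28 tested other genes of ER-associated degradation, 6 rose and 1 fell in S vs NS, and 7 rose and 1 fell with inhibitor (medians 0.18 and 0.16). The 25.0% and 28.6% called are near the 24.9% and 30.5% of all genes tested. Without animal 1, 6 rose and 1 fell, and 7 rose and 2 fell with inhibitor. With library size scaling 2 and 4 rose, and without the animal block 1 and 4, with 1 lower each time. The ubiquitin-conjugating enzymes Ube2g1 and Ube2g2, which work with membrane ligases of the ER, rose in both contrasts, Ube2g1 by 0.63 and 0.61 and Ube2g2 by 0.40 and 0.79. Herpud2, the paralog of Herpud1, rose in S_PI vs NS_PI by 0.99 ± 0.20. Fam8a1, a partner of HRD1, fell in both, with -0.97 ± 0.18 and -0.78 ± 0.18. Of 20 other folding and redox enzymes, 4 rose and 1 fell in S vs NS and 3 rose with inhibitor, among the latter Ero1a, the oxidase that recharges disulfide isomerases, by 0.71 ± 0.16. The shares called were 25.0% and 15.0% and the medians 0.25 and 0.15, and in S vs NS none rose with library size scaling, without the animal block or without animal 1. Of 18 other genes of glycan attachment and processing, Alg2 rose and Dolk, the dolichol kinase, fell in S vs NS, and Dolk fell in S_PI vs NS_PI too. Dolk had -1.25 and -1.11, and in all 11.1% and 5.56% were called. Of 16 translocon, signal peptidase and signal recognition particle genes, Sec62 fell in S vs NS and Spcs1 with inhibitor, and none rose (6.25% called in each, medians -0.08 and -0.01), while with library size scaling 4 fell in S vs NS and 3 with inhibitor.

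In the authors' deposited table of 1 comparison, 45 of the ER genes had an adjusted p and 3 of these were below 0.05: Herpud1, Dnajb9 and Vcp. The share of all genes below 0.05 in that table was not counted, so the 3 cannot be read as many or few. The table's header names neither groups nor direction. Its log2 values were -1.20 for Herpud1, -0.53 for Dnajb9 and -0.46 for Vcp in the authors' deposited table, with signs opposite to S over NS in the counts. Derl3 appears there under more than 1 identifier.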

How the data were processed

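Gene expression was measured in 20 libraries with a 3' end kit. Per the submitters' processing notes, STAR and HTSeq were used on rat build rn6; their versions and the annotation are not given. The authors deposited raw counts per gene symbol for every library. A further table that the authors deposited comes from DESeq2 with control for the animal. Per the file headers, its columns are the mean normalized count, a signal value that belongs to no single library, the log2 fold change and its error, the Wald score, and the raw and adjusted p-value.

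HTSeq summary entries stayed out of library sizes: 16.2 to 24.5% of records lay outside genes and 35.5 to 57.7% aligned to several places. The filter was filterByExpr on the 4 groups. edgeR's quasi-likelihood F test was fitted to the TMM-scaled counts of all 20 libraries with group and animal as terms (12 residual degrees of freedom), and p was adjusted by Benjamini-Hochberg over 8320 genes with a threshold of 0.05. Stretch effects that vary by animal have no term of their own and enter the residual. The SE is the size of the log2 fold change divided by the root of F. After the fit, the test was also run on simulated counts without stretch effects that vary by animal, and the outcome is not given here. Software: edgeR 4.0.16 with limma 3.58.1 and DESeq2 1.42.0 in R 4.3.3; figures with matplotlib 3.10.9 in Python 3.11.15.

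The replicate number was taken as the animal, since the deposited comparison controls for rat and each library is of 1 animal. Deviations from group means of same-numbered libraries correlated at a median r of 0.476 (0.316 to 0.788, 30 pairs), others at -0.187, and 20 of 20 libraries correlated best with their own number.

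Alternatives were RLE and library size scaling, no filter, no block, DESeq2, fits to the compared groups, a block of animal and stretch, and each animal left out. The members, roles, lists and named genes were chosen with earlier results of these data known. Named with values were the ER genes that passed and, per contrast, those of the 5 largest changes, and the 5 of highest level; genes of other lists were named where they passed, at most 5 a list and contrast. The labels name no sequencing batch. Floors cover counting error only. The SE, interval and p of a fold change rest on the residual left after group and animal, pooled over the 4 groups. Level differences between animals are not in it, and variation of the stretch effect between animals is only a part of it.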

Additional observations from a re-analysis of the deposited data

Results flagged for a closer look

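In the 184 groups of 5 libraries (46 ER genes in 4 groups), 23 had a highest or lowest library far from the other 4. The rule would flag about 5% of groups of independent, normally distributed values. CPM need not be normal and the genes share the same libraries, so the 23 cannot be set against that rate. Of the 23, 20 are libraries of animal 1, and 16 are the highest values of its stretched libraries, 10 in S and 6 in S_PI. The 23 cover 17 genes in all. In S the library of animal 1 was far above the others for Calr at 4759 CPM, Canx at 1985 CPM, Rpn1 at 1646 CPM, Pdia6 at 1293 CPM, Ssr1 at 1117 CPM, Rpn2 at 896 CPM, Ubxn4 at 647 CPM, Txndc5 at 282 CPM, Txndc11 at 228 CPM and Srpr at 209 CPM. In S_PI it was far above for Calr at 3586 CPM, Hsp90b1 at 2938 CPM, Ubxn4 at 567 CPM, Dnajb9 at 237 CPM, Txndc11 at 177 CPM and Srpr at 176 CPM.

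Animal 1 was also the highest in NS_PI for Canx at 1189 CPM and for Edem3 at 9.31 CPM, and the lowest for Ssr2 at 468 CPM in S_PI and for Edem2 at 14.6 CPM in S. From other animals came P4hb, lowest in S of animal 4 at 1336 CPM, Dnajb9, highest in NS of animal 2 at 161 CPM, and Ero1b, lowest in NS_PI of animal 3 at 1.58 CPM. No ER gene moved one way in every animal without inhibitor and the other way in every animal with it.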

How the results depend on the processing

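The 12 gene calls of the stretch contrasts kept their direction in all 132 values over 11 alternatives and their call in 102. Herpud1 in both contrasts, and Derl3, Dnajb9 and Edem2 with inhibitor, kept it in every one. The count of ER genes in S vs NS was 2 without the replicate block and 2 in a fit to the compared groups only, and 2 to 5 with 1 animal left out; with inhibitor it was 4 to 8. Over all genes S vs NS gave 818 without the replicate block and 1048 with the compared groups only, and S_PI vs NS_PI 1229 without the replicate block; the cause was not tested. In NS_PI vs NS 1 ER gene passed with a block of animal and stretch (Sdf2l1) and 1 with the compared groups only (Derl3), and over all genes 4 with no filter, 4 with DESeq2, 31 with a block of animal and stretch, 27 with the compared groups only and 0 to 3 with 1 animal left out. The average inhibitor effect gave 4 with no filter, 0 without the replicate block, 7 with DESeq2, 35 with a block of animal and stretch and 0 to 4 with 1 animal left out, and no ER gene in any. Scaling by library size alone put the median of all genes at -0.12 in both stretch contrasts, and S vs NS then had 722 genes higher and 1425 lower (1044 and 1031 with TMM) and 2 ER genes higher and 4 lower (4 and 1). S_PI vs NS_PI had 957 and 1677 genes with library size scaling (1263 and 1271 with TMM). With RLE scaling 4 ER genes were higher and 0 lower in S vs NS. Derl3, Pdia4 and Stt3a passed as lower in S vs NS with library size scaling. Depth limits Derl3, Edem2, Manf, Uggt1 and Srprb, whose median counts per library were 20.5 to 47.5. With inhibitor against vehicle in stretched cells, 26 (RLE scaling) to 31 (library size) of the 44 were positive, beside 29, and in unstretched cells 33 in both. The counts of the other lists under these settings were added after seeing the data.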
